A study of Mus musculus with 48 samples.

Results

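The genes described here encode the enzymes and glucose carriers of glycolysis and gluconeogenesis, with the isozymes of each step. They are 33 mouse gene symbols, chosen by name and not by their values: the hexokinases Hk1, Hk2 and Hk3, the phosphofructokinases Pfkl, Pfkm and Pfkp, the aldolases Aldoa and Aldoc, the phosphoglycerate mutases Pgam1 and Pgam2, the enolases Eno1, Eno2 and Eno3, the pyruvate kinases Pkm and Pklr, the lactate dehydrogenases Ldha and Ldhb, the fructose bisphosphatases Fbp1 and Fbp2, the PEP carboxykinases Pck1 and Pck2, the glucose transporters Slc2a1, Slc2a2, Slc2a3 and Slc2a4, and the single genes Gpi1, Tpi1, Gapdh, Pgk1, G6pc, Pcx, Pdha1 and Pdhb. Aldoa matched 2 identifiers in the tables, so the 33 symbols stood for 34 of 22055 genes. The study profiled wild-type C57BL/6 mice at postnatal day 42 (P42) and embryonic day 15.5 (E15.5) in 6 tissues, brain, retina, heart, kidney, liver and lung. Each tissue and stage had 2 biological replicates for poly(A)+ RNA-seq, which measures message, and 2 for Ribo-seq, which sequences the fragments that ribosomes protect from nuclease and so measures ribosomes on the message (footprints). That makes 48 libraries in 24 groups, with no treatment and no mutant. The labels do not say whether E15.5 samples were pooled from several embryos.

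Glycolysis splits glucose to pyruvate in the cytosol. Lactate dehydrogenase then interconverts pyruvate and lactate, and the pyruvate dehydrogenase complex, inside mitochondria, turns pyruvate into acetyl-CoA. Gluconeogenesis runs the path backwards, sharing the reversible enzymes and replacing the irreversible ones with pyruvate carboxylase (Pcx), PEP carboxykinase, fructose bisphosphatase and glucose-6-phosphatase (G6pc). Liver and kidney are known for releasing glucose made this way, muscle and brain for consuming it, and the retina for making lactate even in oxygen. Many steps have several isozymes, separate genes for the same reaction, whose names often recall the tissue where the protein was first found.

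Values are TPM, transcript shares that are scaled for gene length and library, so that genes can be set side by side. The 34 genes summed to 1044 to 11861 TPM by RNA-seq and 757 to 8693 TPM by Ribo-seq. Across genes, replicate RNA-seq libraries correlated at r = 0.97 to 1.00 and replicate Ribo-seq libraries at 0.95 to 1.00, and no replicate pair was identical. Markers of each tissue summed highest in that tissue by RNA-seq. Some libraries stood apart. Among RNA-seq libraries, replicate 2 of E15.5 kidney listed only 48.9% of the full TPM total, against 93.4% in the one that listed most. Ribo-seq libraries listed 23.1% to 61.1% of it, with a median of 40.1%, against a median of 86.6% by RNA-seq. A gene's footprint TPM and mRNA TPM are thus not on a like scale. Replicate 2 of E15.5 liver RNA-seq held 694 TPM of 10 skeletal muscle markers, against 27.1 TPM in replicate 1. Among Ribo-seq libraries, replicate 1 of P42 lung held 1484 TPM of 5 proximal tubule markers, against 34.1 TPM in replicate 2, and replicate 2 of P42 retina held 509 TPM of them, against 1.63 TPM in replicate 1. In whole tissue, fewer cells of a type and less RNA per cell cannot be told apart. Each stage and assay has a table of its own, so stage and table also cannot be told apart.

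A gene was called different between stages at a Benjamini-Hochberg adjusted p below 0.05 and a log2 difference, P42 minus E15.5, of at least 1 in size, from limma on log2(TPM + 1) across all genes of the assay. A call is said to be kept under every scaling where it also passed under 4 other ways of scaling the libraries. More of the members rose than fell in brain, retina and kidney, and more fell than rose in heart, liver and lung. In heart, liver and lung all genes tested also fell more often than they rose. The counts are therefore given beside the shares of all genes. In brain, 10 of 28 tested members rose by mRNA and 3 fell, 9 and 0 of them under every scaling, where 11.7% of all genes tested rose and 36.0% fell. Brain footprints rose for 16 of 31 members and fell for 2 (13 and 2 under every scaling), beside 20.2% and 17.7% of all genes. The members' median in brain was 0.64 log2 by mRNA, while the median of all genes was -0.60. Retina mRNA rose for 11 of 27 and fell for 2 (11 and 1 under every scaling; all genes 18.6% and 24.7%). Retina footprints rose for 11 of 28 and fell for 1 (11 and 1 under every scaling; all genes 21.3% and 16.2%). Both neural tissues therefore had more members rising than falling in each assay. In kidney the split by mRNA was 11 higher and 6 lower of 33 (10 and 4 under every scaling; all genes 13.1% and 43.9%). By footprints it was 9 higher and 8 lower of 32 (9 and 3 under every scaling; all genes 12.2% and 40.2%). 

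Liver mRNA rose for 4 of 31 tested members and fell for 16 (4 and 10 under every scaling), with 13.4% of all genes higher and 47.0% lower. Liver footprints rose for 6 of 32 and fell for 18 (6 and 9 under every scaling; all genes 10.2% and 44.0%). The rising liver genes were those of glucose output, described below with kidney, and by footprints also Eno2. Lung mRNA rose for 1 of 29 members and fell for 18 (1 and 8 under every scaling; all genes 10.1% and 53.5%). Lung footprints rose for 6 of 33 and fell for 16 (2 and 14 under every scaling; all genes 18.6% and 22.8%), and without P42 lung Ribo-seq replicate 1 the count rising was 2. Heart mRNA rose for 3 of 28 and fell for 17, but the median of all genes fell by 1.61 there and 74.6% of all genes were called lower (2.73% higher), so that 2 of the rises and 4 of the falls passed under every scaling. Heart footprints rose for 5 of 30 and fell for 15 (5 and 8 under every scaling; all genes 10.2% and 50.6%). With median-of-ratios scaling the members higher and lower by mRNA were 18 and 0 in brain, 11 and 1 in retina, 11 and 5 in heart, 20 and 4 in kidney, 10 and 10 in liver and 2 and 8 in lung, and by footprints 14 and 8 in heart, 13 and 3 in kidney and 8 and 9 in liver. The balance in heart and liver thus turned on the scaling, and calls of members that were lost under a scaling are named as such below. Members called the same way by both assays were 9 up and 1 down of 27 in brain (all genes 9.8% and 14.8%), 9 up and 1 down of 26 in retina (all genes 14.4% and 14.3%), 2 up and 13 down of 27 in heart (all genes 2.01% and 49.9%). Those for the other organs were 9 up and 5 down of 32 in kidney (all genes 10.1% and 34.0%), 4 up and 16 down of 31 in liver (all genes 8.65% and 35.1%) and 1 up and 15 down of 28 in lung (all genes 9.16% and 21.1%).

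**Figure D1:**
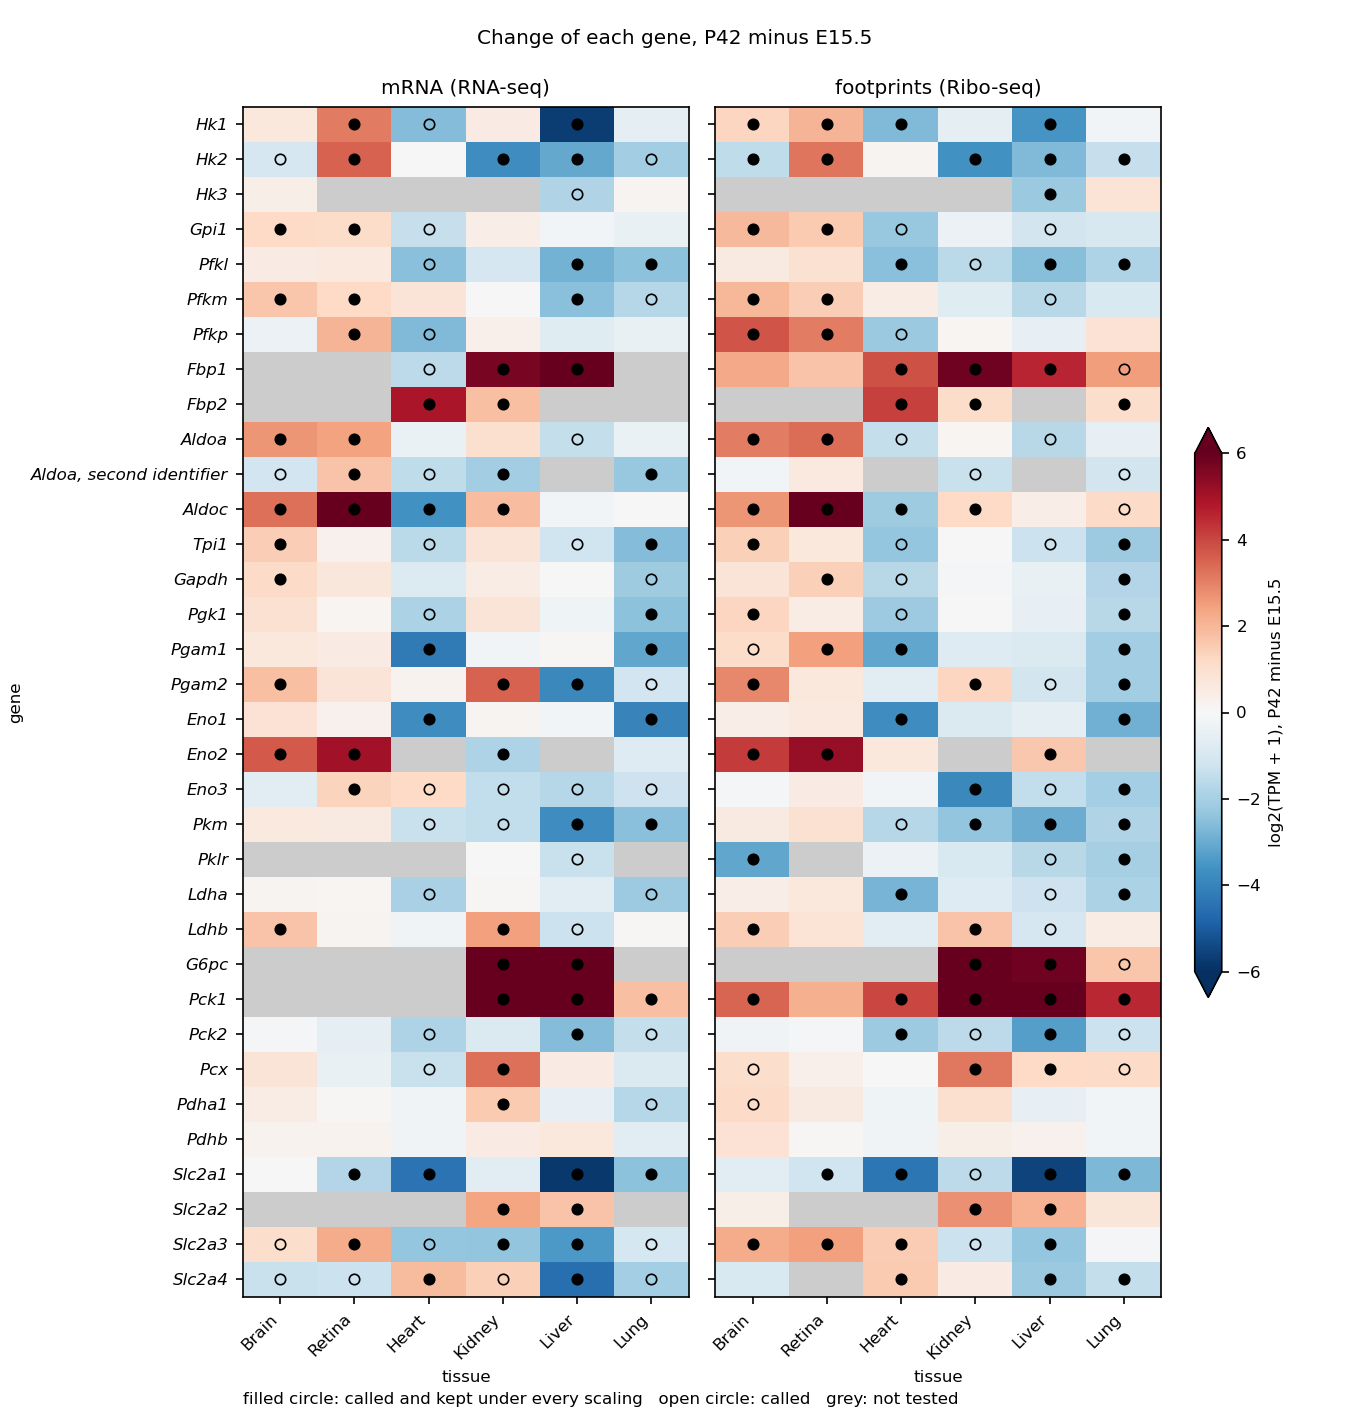
Log2 change, P42 minus E15.5, of the 34 identifiers (rows, in order of the pathway) in 6 tissues, for mRNA (left block) and footprints (right block). Red is higher at P42 and blue lower, a filled circle marks a call kept under every scaling, an open circle a call that was not, and grey a gene not tested. Pck1, G6pc and Fbp1 are red in kidney and liver, Aldoc and Eno2 in brain and retina, and most of the lung column is blue.

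Glucose enters cells through the Slc2a carriers, and the leading carrier changed with age in heart, kidney and liver. In heart, Slc2a4 (GLUT4, the insulin-responsive carrier of muscle and fat) had 119 and 109.7 TPM in P42 heart, against 30.5 and 30.0 TPM in E15.5 heart (log2 1.88, SE 0.22, adjusted p = 3.4e-08). Slc2a1 (GLUT1, the widespread basal carrier) had 3.69 and 3.16 TPM in P42 heart, against 99.5 and 91.9 TPM in E15.5 heart (log2 -4.45, SE 0.19, adjusted p = 2.0e-14). Neither gene's stages overlapped, and both calls were kept under every scaling. Slc2a4 made up 96.7 ± 0.166% at P42 and 22.9 ± 0.714% at E15.5 of the mRNA of the 4 carriers in heart (SD, n = 2), and footprints gave 74.6% at P42 and 13.2% at E15.5. With 2 libraries against 2 an exact permutation test cannot go below p = 0.3333, so shares are given as descriptions without a test. In liver, Slc2a2 (GLUT2, the high-capacity carrier of hepatocytes and proximal tubule) had 122 and 109 TPM in P42 liver, against 36.7 and 33.1 TPM in E15.5 liver (log2 1.70, SE 0.17, adjusted p = 8.2e-09), and Slc2a1 had 7.60 and 5.95 TPM in P42 liver, against 431 and 424 TPM in E15.5 liver (log2 -5.79, SE 0.19, adjusted p = 2.2e-17). The embryonic liver's carrier mRNA was thus mostly Slc2a1 and the P42 liver's almost all Slc2a2, whose share was 94.1 ± 0.361% at P42 and 6.94 ± 0.403% at E15.5. Fetal liver also forms blood: 8 erythroid markers, all in the tables, summed to 196 to 285 TPM in P42 liver and 29401 to 31709 TPM in E15.5 liver, and their part in the fall of Slc2a1 was not tested.

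In kidney Slc2a2 rose too. It had 58.4 and 61.2 TPM in P42 kidney, against 14.3 and 8.08 TPM in E15.5 kidney (log2 2.37, SE 0.17, adjusted p = 4.4e-11), a share of 49.6 ± 0.354% at P42 and 13.1 ± 0.946% at E15.5. Slc2a4 also had higher kidney mRNA at P42 (log2 1.44), a call that was lost under 1 or more scalings. Slc2a3 (GLUT3, a high-affinity carrier of neurons) rose in retina, where it had 33.3 and 35.3 TPM in P42 retina, against 6.32 and 6.81 TPM in E15.5 retina (log2 2.22, SE 0.20, adjusted p = 1.1e-09), and in brain (log2 1.04 by mRNA and 2.24 by footprint, the mRNA call not kept under every scaling). It fell in liver (log2 -3.44) and kidney (log2 -2.36). Slc2a1 mRNA in retina had 169 and 147 TPM at P42, against 552 and 514 TPM at E15.5 (log2 -1.75, SE 0.19, adjusted p = 4.2e-08), so the most abundant retinal carrier fell while Slc2a3 rose. Lung Slc2a1 fell by 2.44 on the log2 scale, under every scaling. Heart Slc2a3 was called in opposite directions: mRNA had 0.471 and 0.395 TPM at P42, against 6.23 and 6.26 TPM at E15.5, and footprints had 10.5 and 18.8 TPM at P42, against 3.72 and 4.77 TPM at E15.5. The mRNA call was lost under 1 or more scalings and the footprint call was kept.

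Hexokinase traps glucose in the cell as glucose-6-phosphate. Hk1, the form bound to mitochondria in most tissues, and Hk2, its inducible relative in muscle and fat, both rose in retina. Retinal Hk2 (ENSMUSG00000000628, chromosome 6, 82725025 to 82774454, minus strand) had 256 and 215 TPM in P42 retina, against 19.2 and 19.7 TPM in E15.5 retina (log2 3.53, SE 0.19, adjusted p = 2.0e-13), and Hk1 had 381 and 350.2 TPM at P42, against 45.1 and 38.7 TPM at E15.5 (log2 3.10, SE 0.20, adjusted p = 4.3e-12). Every P42 retina library was several times above every E15.5 one for both genes, and footprints rose too (log2 3.21 for Hk2 and 2.02 for Hk1). By footprints Hk2 led the step in P42 retina and Hk1 in E15.5 retina, the share of Hk2 being 62.0 ± 1.39% at P42 and 41.0 ± 4.10% at E15.5; by mRNA Hk1 led at both stages. P42 retina held 47866 to 52629.9 TPM of 6 photoreceptor markers and E15.5 retina 155 to 156 TPM.

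In kidney, Hk2 had 0.183 and 0.116 TPM in P42 kidney, against 17.9 and 11.1 TPM in E15.5 kidney (log2 -3.72, SE 0.19, adjusted p = 9.9e-14), and in liver it had 0.562 and 0.505 TPM at P42, against 12.8 and 10.96 TPM at E15.5 (log2 -3.07, SE 0.19, adjusted p = 1.8e-12). The gene was thus nearly absent from P42 kidney and P42 liver, and its stages did not overlap in either tissue. Liver Hk1 had 0.653 and 0.923 TPM at P42, against 97.9 and 85.6 TPM at E15.5 (log2 -5.70, SE 0.20, adjusted p = 5.3e-17), among the largest falls in the pathway, beside the erythroid markers given above. Hk3, a hexokinase of white blood cells, led the listed hexokinases of P42 liver by mRNA, where the others were nearly absent; by footprints Hk1 led there, with 1.73 TPM on average, against 1.39 TPM for Hk3. By mRNA Hk3 had 2.59 and 2.00 TPM at P42, against 10.7 and 10.2 TPM at E15.5 and fell (log2 -1.80, not kept under every scaling). Beside it, 9 granulocyte markers summed to 8.14 to 19.0 TPM in P42 liver and 1442 to 3071 TPM in E15.5 liver.

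The leading hexokinase of heart was Hk2 at P42 and Hk1 at E15.5, and Hk2 itself was not called. The median gene in heart mRNA was log2 -1.61, so a gene with unchanged TPM there lay above the median gene. Cardiac Hk1 had 17.7 and 13.4 TPM in P42 heart, against 102 and 97.8 TPM in E15.5 heart, and Hk2 had 33.3 and 32.0 TPM at P42, against 33.8 and 30.6 TPM at E15.5 (log2 0.02, adjusted p = 0.91). The share of Hk2 was 67.2 ± 3.68% at P42 and 24.3 ± 0.790% at E15.5 by mRNA and 68.7% at P42 and 23.3% at E15.5 by footprints. Hk1 fell by 2.62 on the log2 scale by mRNA, a call not kept under every scaling, and by 2.63 by footprints, which was. Lung went the other way: Hk2 had 4.78 and 4.00 TPM in P42 lung, against 23.2 and 21.1 TPM in E15.5 lung, and the share of Hk1 was 70.4 ± 0.222% at P42 and 47.3 ± 0.823% at E15.5. Brain used Hk1 at both stages, with a share of 97.3 ± 0.227% at P42 and 92.9 ± 1.25% at E15.5.

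**Figure D2:**
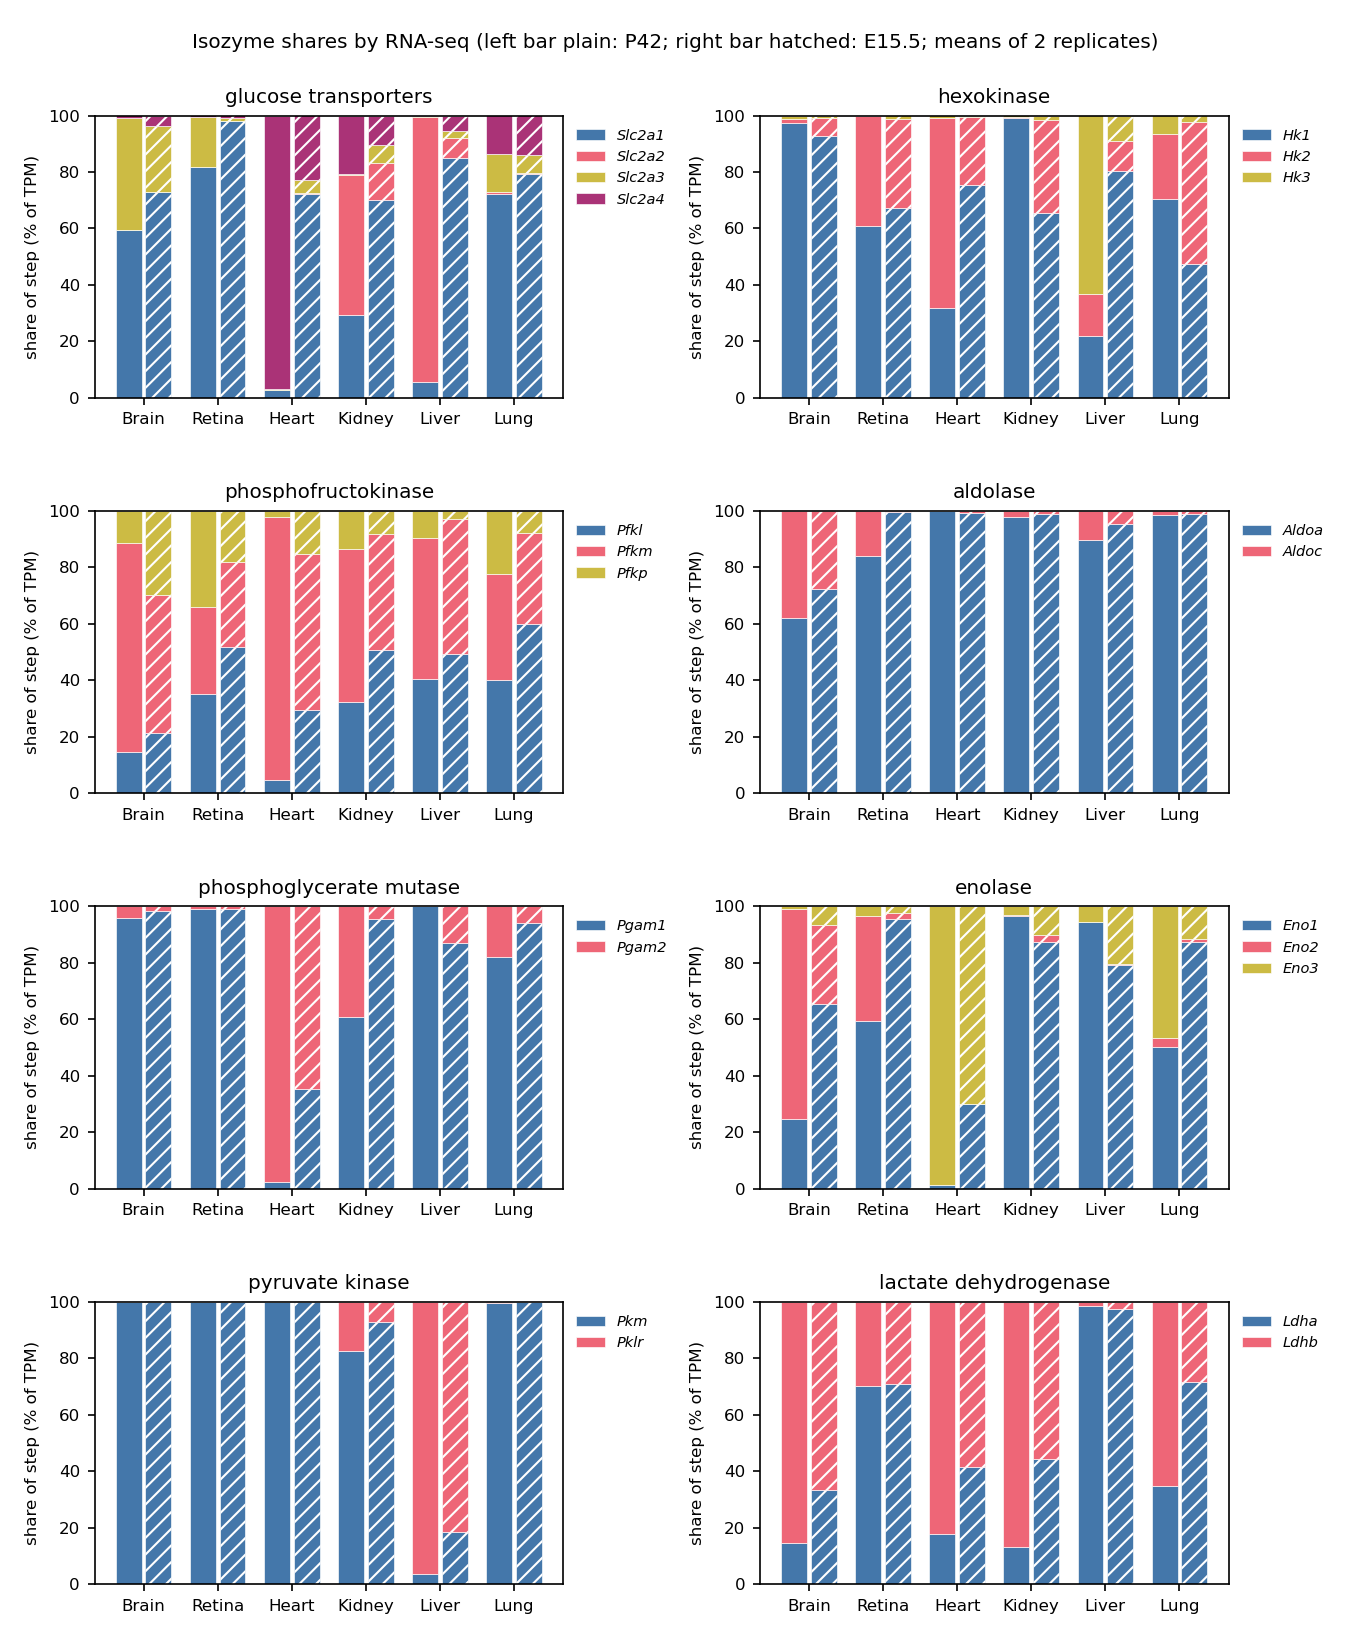
Shares of each isozyme in the summed mRNA TPM of its step, in percent, as the mean of 2 libraries for each tissue, with P42 as the plain left bar and E15.5 as the hatched right bar of each pair. Slc2a4, Hk2, Pfkm, Pgam2, Eno3 and Ldhb each fill most of their P42 heart bar, and P42 brain enolase is mostly Eno2.

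Phosphofructokinase commits sugar to glycolysis and is built from the products of Pfkl (liver type), Pfkm (muscle type) and Pfkp (platelet type). Brain Pfkm had 319 and 349 TPM in P42 brain, against 107 and 104 TPM in E15.5 brain (log2 1.65, SE 0.20, adjusted p = 1.5e-07), and its share of the step was 74.1 ± 1.000% at P42 and 48.6 ± 1.71% at E15.5. Retinal Pfkp had 192 and 137 TPM in P42 retina, against 34.1 and 43.1 TPM in E15.5 retina (log2 2.05, SE 0.21, adjusted p = 9.3e-09). All 3 genes were higher in P42 retina by mRNA, with calls for Pfkm and Pfkp, and Pfkl at log2 0.59 below the fold required. In heart, Pfkm had 287 and 255 TPM at P42, against 161 and 154 TPM at E15.5 while Pfkl had 15.7 and 12.3 TPM at P42, against 88.9 and 79.5 TPM at E15.5, so that the share of Pfkm was 93.1 ± 0.409% at P42 and 55.2 ± 0.711% at E15.5. The Pfkl fall in heart was called but not kept under every scaling by mRNA. Liver Pfkl had 6.74 and 8.29 TPM at P42, against 57.8 and 61.0 TPM at E15.5 (log2 -2.83, SE 0.21, adjusted p = 4.9e-11) and liver Pfkm 8.54 and 10.0 TPM at P42, against 54.3 and 61.1 TPM at E15.5 (log2 -2.51, SE 0.20, adjusted p = 1.0e-10). Both fell together in liver by mRNA under every scaling, whereas by footprints the fall of Pfkm (log2 -1.64) was lost under median-of-ratios scaling and when centred on the median gene. The mRNA share of Pfkm there was 50.0 ± 0.670% at P42 and 47.7 ± 1.33% at E15.5, so neither isozyme dominated P42 liver. In kidney the share of Pfkm was 54.1 ± 0.211% at P42 and 41.0 ± 1.42% at E15.5, with Pfkl at 22.1 and 24.8 TPM at P42, against 62.8 and 36.1 TPM at E15.5. Lung Pfkl had 14.1 and 9.55 TPM at P42, against 71.2 and 66.1 TPM at E15.5 (log2 -2.46, SE 0.21, adjusted p = 6.5e-10), a fall kept under every scaling. Gpi1, the isomerase before this step, rose in brain (log2 1.21) and retina (log2 1.11) in both assays and under every scaling.

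The platelet-type gene Pfkp had the largest change in footprints per message among the members tested for it. In brain its mRNA had 50.9 and 52.1 TPM in P42 brain, against 71.8 and 58.7 TPM in E15.5 brain (log2 -0.33, adjusted p = 0.15), while its footprints had 57.8 and 54.2 TPM at P42, against 2.92 and 3.45 TPM at E15.5 (log2 3.77, SE 0.19, adjusted p = 1.4e-11). The message was thus close in the 2 stages and the footprints did not overlap, with both P42 libraries far above both E15.5 libraries. Translational efficiency, the log2(TPM + 1) of footprints minus that of mRNA, was 0.12 at P42 and -3.98 at E15.5 (log2 4.10, SE 0.28, adjusted p = 6.1e-12). The call was kept without any 1 library and under both scalings tried. Retina shared the low E15.5 footprints, with 46.5 and 40.8 TPM at P42, against 4.92 and 3.82 TPM at E15.5, but mRNA rose there as well and the efficiency call (log2 1.01) was not kept. In E15.5 heart, footprints of Pfkp were 42.7 and 44.9 TPM beside 44.4 and 42.8 TPM of mRNA, so the low footprints were not seen in every E15.5 tissue. Exons of Pfkp (ENSMUSG00000021196, chromosome 13, 6579768 to 6648777, minus strand) overlap Pitrm1 on the other strand. Whether counting used strand is not given in the sources used here, and the part of that gene in either value was not tested.

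**Figure D3:**
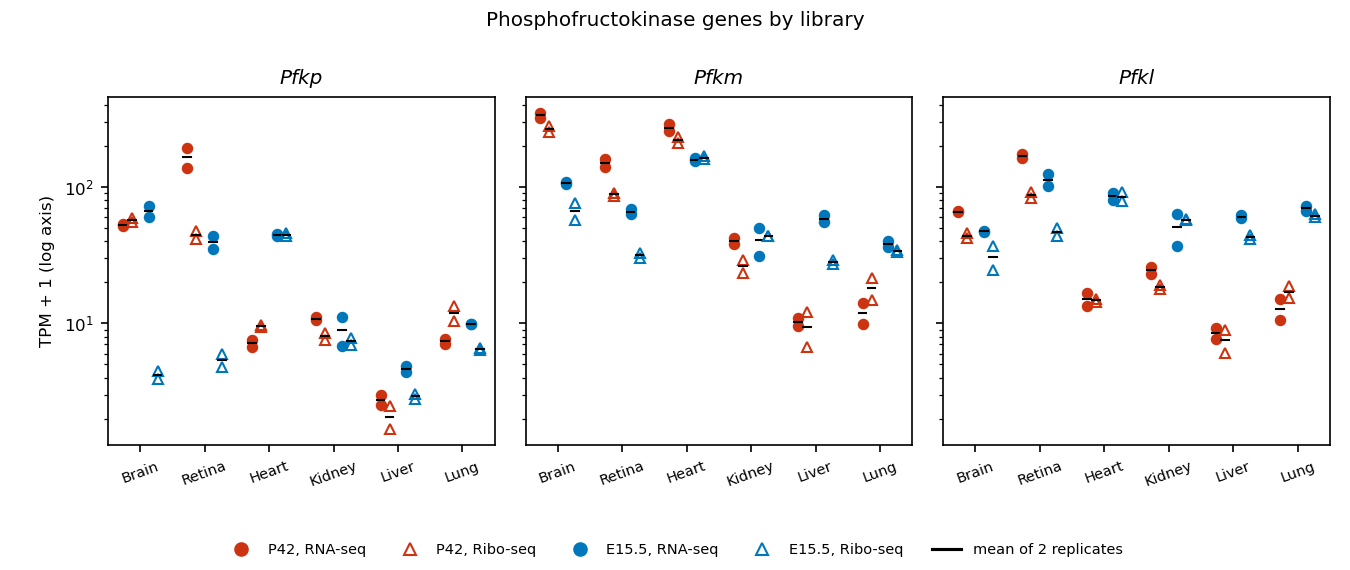
TPM of Pfkp, Pfkm and Pfkl in every library of 6 tissues on a log axis of TPM + 1, with P42 (red) left of E15.5 (blue), filled circles for RNA-seq and open triangles for Ribo-seq. In brain the Pfkp triangles at E15.5 lie far below the circles of the same stage and those at P42 lie beside them.

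The aldolases split fructose bisphosphate, Aldoa being the muscle and general form and Aldoc the brain form. Retinal Aldoc (ENSMUSG00000017390, chromosome 11, 78322968 to 78327781, plus strand) had 458 and 533 TPM in P42 retina, against 2.38 and 2.08 TPM in E15.5 retina (log2 7.26, SE 0.19, adjusted p = 2.9e-19) and, by footprints, 292 and 263 TPM at P42, against 1.000 and 1.30 TPM at E15.5 (log2 7.02, SE 0.33, adjusted p = 2.6e-12). Brain Aldoc had 935 and 916 TPM in P42 brain, against 97.1 and 87.4 TPM in E15.5 brain (log2 3.31, SE 0.19, adjusted p = 8.6e-13), and brain Aldoa 1444 and 1578 TPM at P42, against 249 and 230.4 TPM at E15.5 (log2 2.65, SE 0.22, adjusted p = 3.5e-10). The stages did not overlap for any of these, and each call was kept under every scaling. Aldoa rose too (retina log2 2.42) and still led in both tissues, and the share of Aldoc was 16.1 ± 1.01% at P42 and 0.463 ± 0.0427% at E15.5 in retina and 38.0 ± 1.82% at P42 and 27.8 ± 0.378% at E15.5 in brain. Cardiac Aldoc had 0.0582 and 0.0433 TPM at P42, against 12.3 and 11.8 TPM at E15.5 (log2 -3.64, SE 0.19, adjusted p = 2.5e-13). Its embryonic level in heart was a small part of the brain's. Kidney Aldoc rose under every scaling at low levels (log2 1.87).

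The second Aldoa identifier, ENSMUSG00000114515, shares no exon with the first and was much lower. It had its highest mRNA in P42 retina, with 41.8 and 30.1 TPM at P42, against 11.9 and 8.58 TPM at E15.5, and was left out of the shares.

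Below aldolase, Tpi1, Gapdh and Pgk1 are single genes of the reversible steps. In lung, Tpi1 had 65.1 and 58.5 TPM in P42 lung, against 389 and 359.9 TPM in E15.5 lung (log2 -2.58, SE 0.21, adjusted p = 2.2e-10), and Pgk1, which makes the first ATP, 37.8 and 32.5 TPM at P42, against 212 and 186 TPM at E15.5 (log2 -2.47, SE 0.22, adjusted p = 1.0e-09). Both falls held in both assays under every scaling. Gapdh mRNA in lung had 89.4 and 96.9 TPM at P42, against 421 and 392 TPM at E15.5, a called fall (log2 -2.11) that was not kept under every scaling by mRNA and was by footprints. In brain these genes moved up: Tpi1 had 562 and 603 TPM at P42, against 213 and 207 TPM at E15.5 (log2 1.47, SE 0.21, adjusted p = 1.7e-06), and Gapdh rose by mRNA (log2 1.15). Pgk1 in brain was log2 0.91 by mRNA, not a call, and 1.31 by footprints, a call. Kidney showed no call for any of the 3 in either assay.

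In heart the general isozymes of phosphoglycerate mutase and enolase fell, and no fall was called for the muscle isozymes by mRNA. Pgam1, the general form, had 26.0 and 22.8 TPM in P42 heart, against 491 and 465 TPM in E15.5 heart (log2 -4.24, SE 0.23, adjusted p = 3.8e-13), and Pgam2, the muscle form, had 1052 and 952 TPM at P42, against 929.6 and 824 TPM at E15.5 (log2 0.19, adjusted p = 0.70). Eno1, the general enolase, had 14.95 and 11.4 TPM at P42, against 189.7 and 176 TPM at E15.5 (log2 -3.71, SE 0.21, adjusted p = 1.2e-12), and Eno3, the muscle enolase, had 1006 and 929 TPM at P42, against 441 and 412 TPM at E15.5 (log2 1.18). By mRNA the general forms were thus low in P42 heart. The muscle forms were near or above their embryonic TPM, beside log2 -1.61 for the median gene. Footprints of Pgam2, however, had 663 and 659 TPM at P42, against 1164 and 949 TPM at E15.5 (log2 -0.67, adjusted p = 0.11). The falls of Pgam1 and Eno1 were kept under every scaling in both assays. The rise of Eno3 was called but was lost under the equal-sum scaling of the listed genes and without any single heart library, and its footprints were log2 -0.17. The share of Pgam2 was 97.6 ± 0.0565% at P42 and 64.7 ± 1.08% at E15.5, and that of Eno3 was 98.6 ± 0.175% at P42 and 69.9 ± 0.128% at E15.5.

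**Figure D4:**
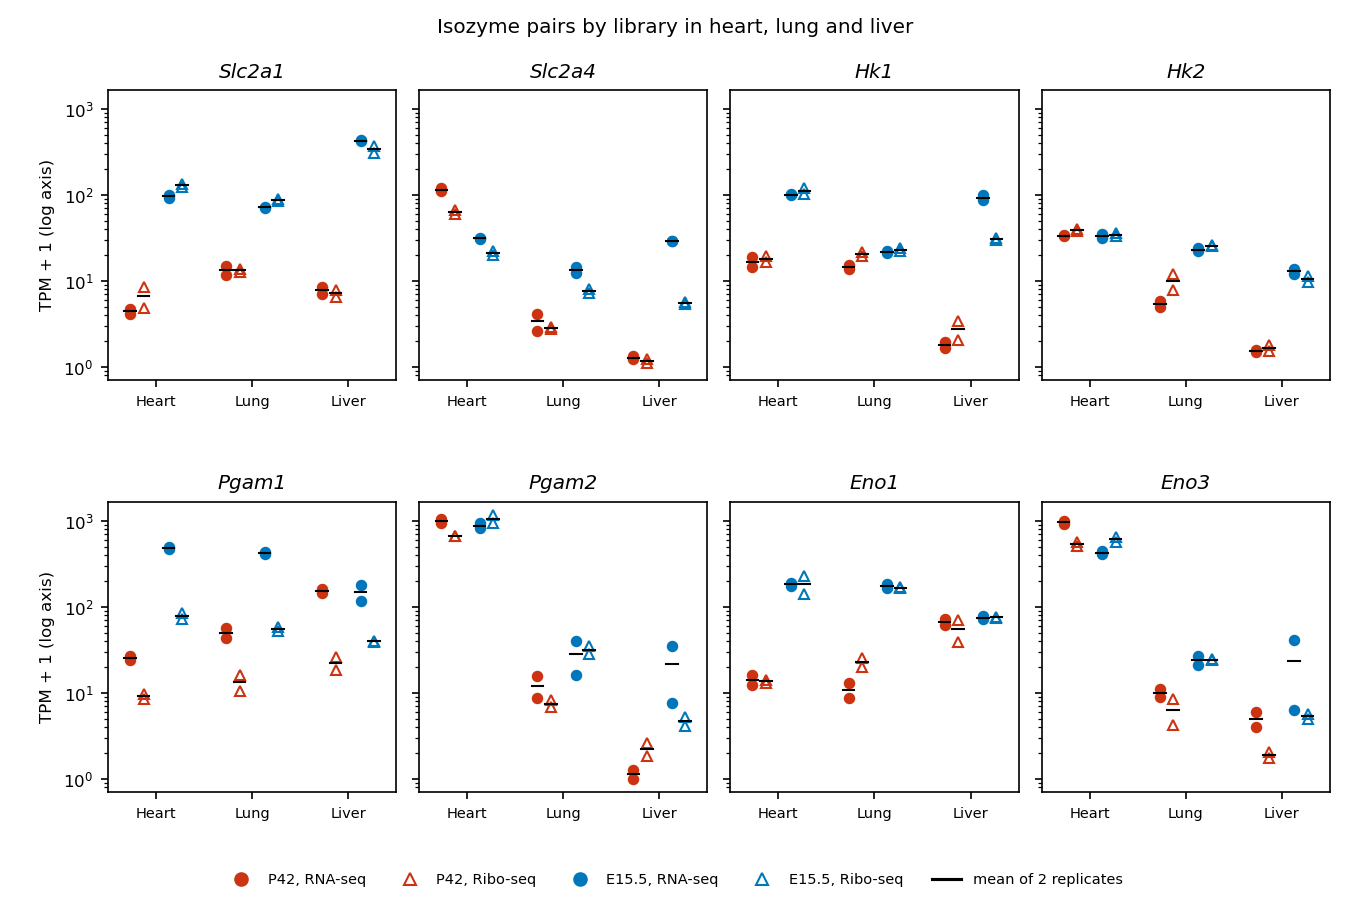
TPM of Slc2a1, Slc2a4, Hk1, Hk2, Pgam1, Pgam2, Eno1 and Eno3 in every library of heart, lung and liver on a log axis of TPM + 1, with P42 (red) left of E15.5 (blue), filled circles for RNA-seq and open triangles for Ribo-seq. In heart Slc2a1, Pgam1 and Eno1 are low at P42, whereas Pgam2 and Eno3 are high at both stages.

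In lung the same general forms fell, and neither muscle form was called higher. Eno1 had 11.9 and 7.75 TPM in P42 lung, against 181 and 164 TPM in E15.5 lung (log2 -4.03, SE 0.21, adjusted p = 2.0e-13), and Pgam1 55.0 and 42.9 TPM at P42, against 433 and 415 TPM at E15.5 (log2 -3.10, SE 0.23, adjusted p = 4.4e-11), both kept under every scaling and in both assays. Lung Eno3 and Pgam2 were also called lower by mRNA (log2 -1.26 and -1.13), not under every scaling, and Pgam2 was 0.10 higher at P42 with median-of-ratios scaling. Beside them, 5 heart markers summed to 80.6 to 199 TPM in P42 lung and 245 to 746 TPM in E15.5 lung, and 10 skeletal muscle markers to 8.19 to 13.4 TPM in P42 lung and 42.3 to 54.5 TPM in E15.5 lung; their part was not tested. Over the same lung libraries, 6 macrophage markers summed to 5372 to 6436 TPM in P42 lung and 198 to 206 TPM in E15.5 lung, 9 granulocyte markers to 577 to 814 TPM in P42 lung and 28.7 to 30.3 TPM in E15.5 lung and 5 proliferation markers to 13.99 to 14.5 TPM in P42 lung and 769.6 to 778 TPM in E15.5 lung, and their part in the lung falls was not tested either. Brain changed its leading enolase to Eno2, the neuronal form, which had 504 and 562 TPM in P42 brain, against 46.1 and 36.3 TPM in E15.5 brain (log2 3.67, SE 0.20, adjusted p = 3.8e-13). Its share was 74.5 ± 1.37% at P42 and 27.7 ± 3.47% at E15.5 by mRNA and 73.7% at P42 and 15.8% at E15.5 by footprints. In retina Eno2 rose as well, with 323 and 365 TPM at P42, against 10.6 and 8.77 TPM at E15.5 (log2 5.02, SE 0.20, adjusted p = 7.1e-16), yet Eno1 still led and Eno2 reached a share of 37.2 ± 1.12% at P42 and 2.01 ± 0.0491% at E15.5. Brain Pgam2, a minor form there, also rose under every scaling (log2 1.80 by mRNA).

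In kidney Pgam2 had 255 and 163 TPM in P42 kidney, against 21.1 and 12.7 TPM in E15.5 kidney (log2 3.56, SE 0.47, adjusted p = 5.1e-07), while Pgam1 had 347 and 292 TPM at P42, against 481 and 268 TPM at E15.5. The share of Pgam2 was 39.1 ± 4.58% at P42 and 4.36 ± 0.228% at E15.5 by mRNA and 68.3% at P42 and 33.2% at E15.5 by footprints, where it led the step at P42. Among liver RNA-seq libraries, Pgam2 and Eno3 were highest in the one with skeletal muscle markers. Without it the fall of Pgam2 was smaller but remained, and that of Eno3 was mostly lost. Pgam2 had 0 and 0.249 TPM at P42, against 6.65 and 34.1 TPM at E15.5, with a change of -3.87 on the log2 scale and -2.77 without E15.5 replicate 2. Eno3 had 3.04 and 4.94 TPM at P42, against 5.25 and 40.1 TPM at E15.5, with a called change of -1.71 and -0.35, no call, without that replicate.

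Pyruvate kinase closes glycolysis, with Pkm in most tissues and Pklr in liver and red cells. Liver Pkm had 5.81 and 5.71 TPM in P42 liver, against 81.6 and 96.6 TPM in E15.5 liver (log2 -3.73, SE 0.20, adjusted p = 7.5e-14), and Pklr had 197 and 122 TPM at P42, against 412 and 378 TPM at E15.5 (log2 -1.34, not kept under every scaling). Pkm was the minor form, and the share of Pklr was 96.3 ± 1.15% at P42 and 81.6 ± 2.71% at E15.5. Lung Pkm had 78.6 and 67.3 TPM at P42, against 438 and 396 TPM at E15.5 and fell under every scaling (log2 -2.50). Outside liver and kidney Pklr was under 1 TPM by RNA-seq at both stages, but its footprints had 0.624 and 0.498 TPM in P42 brain, against 15.1 and 10.6 TPM in E15.5 brain. Erythroid footprints summed to 24.7 to 28.8 TPM in P42 brain and 811 to 1048 TPM in E15.5 brain, and their part in this difference was not tested.

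Lactate dehydrogenase is built from Ldha, the form that prevails where lactate is made, and Ldhb, the form of heart. Kidney Ldhb had 2236 and 2034 TPM in P42 kidney, against 507 and 301 TPM in E15.5 kidney (log2 2.45, SE 0.22, adjusted p = 1.1e-09), and brain Ldhb 1119.8 and 1322 TPM at P42, against 371 and 367 TPM at E15.5 (log2 1.72, SE 0.22, adjusted p = 3.6e-07). Ldha in these tissues had 347 and 296 TPM at P42, against 412 and 232 TPM at E15.5 in kidney and 209 and 201 TPM at P42, against 181 and 186 TPM at E15.5 in brain, with no call. The share of Ldhb was 86.9 ± 0.520% at P42 and 55.8 ± 0.858% at E15.5 in kidney and 85.5 ± 1.78% at P42 and 66.8 ± 0.643% at E15.5 in brain. In heart and lung the share of Ldhb was also higher at P42. Cardiac Ldha had 240.4 and 198 TPM at P42, against 859.6 and 802 TPM at E15.5, a called fall that was 0.093 in the other direction with median-of-ratios scaling. Lung Ldha had 107 and 93.9 TPM at P42, against 473 and 438 TPM at E15.5 (log2 -2.17, not kept under every scaling by mRNA) and Ldhb 203 and 174 TPM at P42, against 185 and 176 TPM at E15.5, so that Ldhb led at P42 with 65.1 ± 0.295% at P42 and 28.4 ± 0.445% at E15.5. Heart gave 82.2 ± 1.37% at P42 and 58.7 ± 0.225% at E15.5. Retina kept Ldha as its leading form with overlapping stages, at 70.3 ± 3.98% at P42 and 70.7 ± 0.962% at E15.5. Liver was nearly all Ldha at both stages, with Ldhb at 4.78 and 4.19 TPM at P42, against 9.90 and 14.98 TPM at E15.5.

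The pyruvate dehydrogenase subunits, which feed pyruvate to the citric acid cycle, had few calls. Pdhb was called in no tissue by either assay, with log2 changes by mRNA between -0.67 in lung and 0.66 in liver. Pdha1 rose in kidney by mRNA, with 318 and 352 TPM at P42, against 149.6 and 82.7 TPM at E15.5 (log2 1.58, SE 0.21, adjusted p = 5.3e-07), and fell in lung by mRNA only (log2 -1.71, not kept under every scaling), where its footprints had 73.4 and 57.5 TPM at P42, against 71.1 and 73.8 TPM at E15.5.

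The genes of glucose output rose together in kidney and liver. Pck1, the cytosolic PEP carboxykinase (ENSMUSG00000027513, chromosome 2, 173153048 to 173159273, plus strand), had 2876 and 2343 TPM in P42 kidney, against 15.1 and 8.88 TPM in E15.5 kidney (log2 7.69, SE 0.25, adjusted p = 4.0e-17), and 1328 and 1069.6 TPM in P42 liver, against 1.12 and 1.29 TPM in E15.5 liver (log2 9.08, SE 0.25, adjusted p = 8.4e-19). G6pc, the catalytic subunit of glucose-6-phosphatase (ENSMUSG00000078650, chromosome 11, 101367561 to 101377903, plus strand), had 320.1 and 294 TPM in P42 kidney, against 1.46 and 0.828 TPM in E15.5 kidney (log2 7.18, SE 0.15, adjusted p = 1.4e-20), and 97.2 and 76.1 TPM in P42 liver, against 0.0625 and 0.116 TPM in E15.5 liver (log2 6.32, SE 0.15, adjusted p = 5.2e-20). Fbp1, the fructose bisphosphatase of liver and kidney (ENSMUSG00000069805, chromosome 13, 62864753 to 62888282, minus strand), had 1253 and 1140.5 TPM in P42 kidney, against 29.2 and 16.7 TPM in E15.5 kidney (log2 5.69, SE 0.28, adjusted p = 4.8e-14), and 1009.8 and 1047 TPM in P42 liver, against 22.9 and 9.01 TPM in E15.5 liver (log2 6.06, SE 0.28, adjusted p = 8.7e-15). No stages overlapped, and footprints of each rose in both tissues too, all kept under every scaling. The kidney was ahead of the embryonic liver in Pck1: E15.5 kidney libraries held 15.1 and 8.88 TPM, and E15.5 liver libraries 1.12 and 1.29 TPM. Pcx, which makes oxaloacetate from pyruvate, rose in kidney, with 246 and 251 TPM at P42, against 31.3 and 18.8 TPM at E15.5 (log2 3.30, SE 0.23, adjusted p = 1.1e-11). In liver Pcx was already high, with 116 and 118 TPM at P42, against 92.0 and 74.9 TPM at E15.5, and only its footprints were called (log2 1.22).

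The windows from 250 bases before to 50 bases after the RefSeq start site (GRCm38.p6) of these 3 genes and Slc2a2, which rose together in kidney and liver, and of Hk2, which fell in both, read as follows, 5′ to 3′ on the gene's strand. Capitals mark exact matches, on either strand, to ACGTG (the core of the hypoxia response element), to CACGTG (an E-box), to TATAAA (the TATA box), to GGGCGG (a GC box) or to TGACGTCA (the full palindromic form of the cyclic AMP response element). An E-box of this form also contains ACGTG. Variants of these motifs were not searched and stay in lower case.
Pck1, chr2:173152823-173153122, plus strand: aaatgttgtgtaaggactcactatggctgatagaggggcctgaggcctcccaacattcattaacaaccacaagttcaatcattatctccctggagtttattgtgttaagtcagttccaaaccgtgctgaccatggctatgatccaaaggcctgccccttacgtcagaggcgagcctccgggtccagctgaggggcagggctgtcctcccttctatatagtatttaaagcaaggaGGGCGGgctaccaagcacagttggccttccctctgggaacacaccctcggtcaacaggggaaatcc
G6pc, chr11:101367466-101367765, plus strand: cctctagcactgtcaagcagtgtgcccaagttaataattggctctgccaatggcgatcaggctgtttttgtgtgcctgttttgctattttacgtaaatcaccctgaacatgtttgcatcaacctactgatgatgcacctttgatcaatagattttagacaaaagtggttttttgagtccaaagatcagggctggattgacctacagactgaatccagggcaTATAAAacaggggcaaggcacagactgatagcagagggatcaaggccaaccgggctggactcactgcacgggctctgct
Fbp1, chr13:62888233-62888532, minus strand: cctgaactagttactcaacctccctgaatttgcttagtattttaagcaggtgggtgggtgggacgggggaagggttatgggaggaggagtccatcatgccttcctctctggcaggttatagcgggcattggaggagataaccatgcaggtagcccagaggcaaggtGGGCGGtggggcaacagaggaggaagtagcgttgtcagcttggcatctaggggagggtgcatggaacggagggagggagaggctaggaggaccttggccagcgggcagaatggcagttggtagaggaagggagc
Slc2a2, chr3:28697653-28697952, plus strand: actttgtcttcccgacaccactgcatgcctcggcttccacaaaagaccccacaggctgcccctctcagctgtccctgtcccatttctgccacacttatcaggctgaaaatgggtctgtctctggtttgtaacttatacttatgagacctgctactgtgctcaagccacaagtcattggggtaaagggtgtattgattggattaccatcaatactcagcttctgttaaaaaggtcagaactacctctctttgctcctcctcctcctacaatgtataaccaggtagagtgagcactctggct
Hk2, chr6:82774405-82774704, minus strand: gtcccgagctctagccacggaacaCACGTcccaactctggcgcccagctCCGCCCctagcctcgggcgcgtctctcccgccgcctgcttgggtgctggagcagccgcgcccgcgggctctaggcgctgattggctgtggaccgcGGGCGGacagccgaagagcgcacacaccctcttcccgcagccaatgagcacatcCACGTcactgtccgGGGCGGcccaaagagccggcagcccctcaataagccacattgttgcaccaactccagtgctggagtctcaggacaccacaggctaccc
G6pc holds TATAAA, Pck1 and Fbp1 hold 1 GGGCGG each, Slc2a2 holds none of the motifs, and Hk2 holds 2 ACGTG and 3 GGGCGG. None of the 5 motifs is in all 4 windows of the genes that rose together. The 31 symbols with an entry have 44 windows. ACGTG was in 17 of these (38.6%), against 19.6% of all 32851 windows of this length, and GGGCGG in 20 (45.5%, against 35.7%). TATAAA was in 4 (9.09%, against 13.6%), CACGTG in 4 (9.09%, against 7.15%) and TGACGTCA in 1, of Ldha (2.27%, against 1.79%). The Pck1 window also holds ttacgtca, which differs from TGACGTCA in 1 letter and was not counted. A match is a description of letters and shows no binding, and the lack of an exact match does not show that an element is absent.

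PEP carboxykinase has a mitochondrial form, Pck2, whose mRNA fell in liver, where Pck1 rose, and was not called in kidney. Liver Pck2 had 1.69 and 1.72 TPM in P42 liver, against 15.4 and 15.2 TPM in E15.5 liver (log2 -2.59, SE 0.21, adjusted p = 1.5e-10). The share of Pck1 was 99.9 ± 0.0236% at P42 and 7.29 ± 0.701% at E15.5 in liver. In kidney it was 99.8 ± 0.0386% at P42 and 48.1 ± 2.07% at E15.5. Among the fructose bisphosphatases, Fbp2, the muscle form, appeared in heart, with 32.4 and 31.6 TPM in P42 heart, against 0.109 and 0.127 TPM in E15.5 heart (log2 4.88, SE 0.27, adjusted p = 5.1e-13), and rose in kidney (log2 1.80). Both E15.5 heart libraries were near 0, and its share in heart was 99.9 ± 0.0345% at P42 and 5.53 ± 0.739% at E15.5 by mRNA. By footprints the share of Fbp2 in heart was 58.4% and 37.6% at P42, against 53.7% and 25.7% at E15.5, with overlapping stages, beside the Fbp1 footprints described below. The 5 proximal tubule markers, all in the tables, summed to 45948 to 66596 TPM in P42 kidney and 67.4 to 110.3 TPM in E15.5 kidney. The kidney list of 5 markers, which shares Lrp2 and Slc34a1 with them, summed to 4755 to 5009 TPM in P42 kidney and 151 to 232 TPM in E15.5 kidney. Most of the tubule sum at P42 therefore came from its other genes, Kap, Miox and Slc13a3. The kidney rises of Pck1, G6pc, Fbp1 and Slc2a2 came beside both increases. In liver, 5 hepatocyte markers summed to 127828 to 135871 TPM in P42 liver and 51694 to 57582 TPM in E15.5 liver by mRNA. By footprints they summed to 73707 to 90354 TPM in P42 liver and 88569 to 98437 TPM in E15.5 liver, with overlapping stages. How much of the kidney and liver rises follows from cell numbers was not tested.

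**Figure D5:**
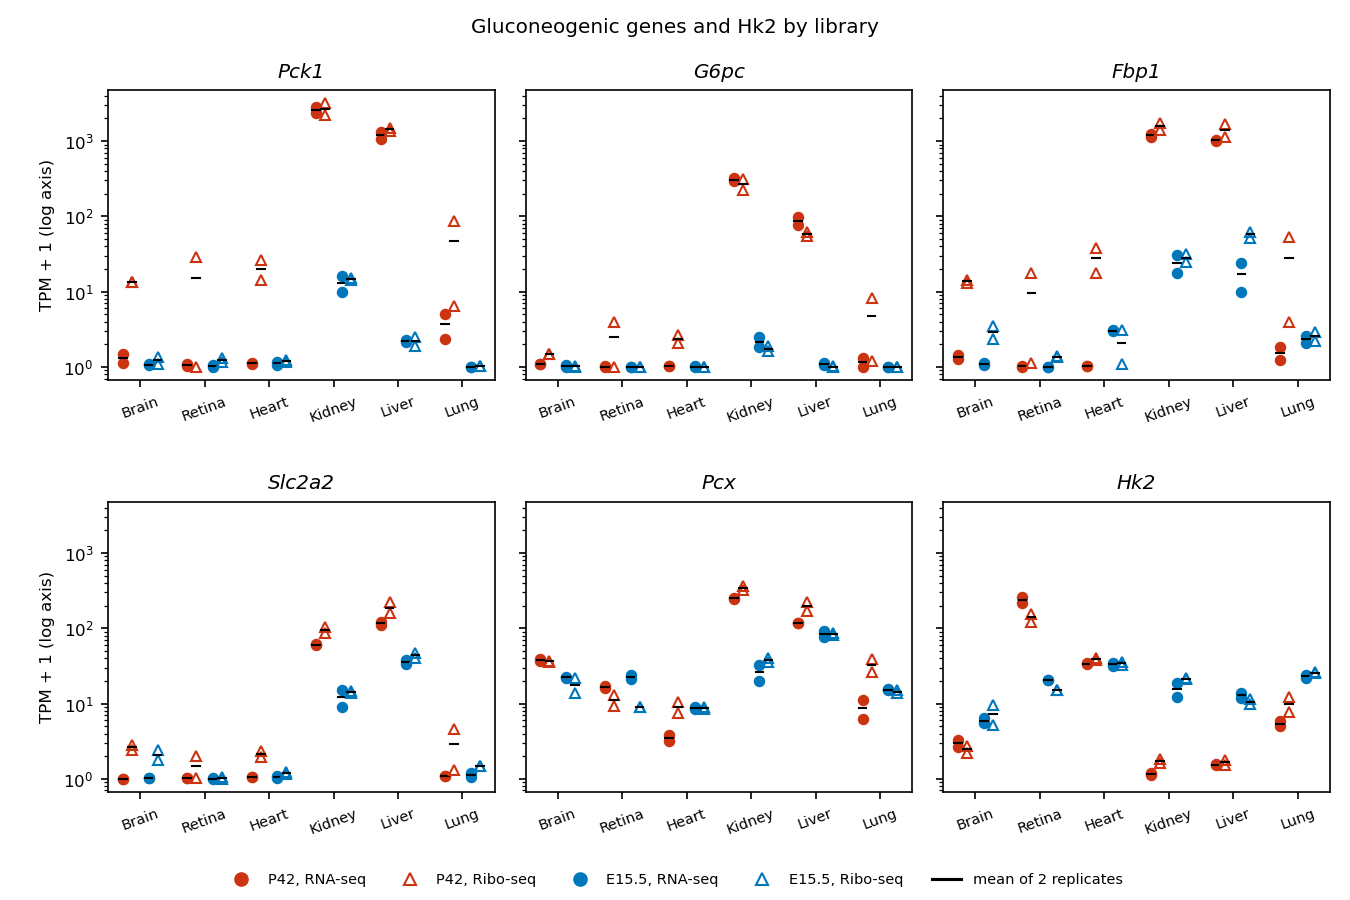
TPM of Pck1, G6pc, Fbp1, Slc2a2, Pcx and Hk2 in every library of 6 tissues on a log axis of TPM + 1, with P42 (red) left of E15.5 (blue), filled circles for RNA-seq and open triangles for Ribo-seq. In kidney and liver the red points of Pck1, G6pc and Fbp1 lie far above the blue ones and those of Hk2 far below, and in P42 heart, brain and lung, and for 1 library of P42 retina, triangles of Pck1 and Fbp1 lie above the circles.

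In P42 heart, brain and lung, and in 1 library of P42 retina, footprints of Pck1 and Fbp1 exceeded what the message showed. In P42 heart, Fbp1 mRNA was 0.0372 and 0.0207 TPM and its footprints 16.5 and 37.3 TPM. Its mRNA was called lower (log2 -1.55, but 0.055 when centred on the median gene) and its footprints higher (log2 3.83). Pck1 footprints in P42 heart were 13.2 and 25.2 TPM beside mRNA of 0.120 and 0.103 TPM, and in P42 brain 12.3 and 12.6 TPM beside 0.119 and 0.472 TPM. All of these were far below the kidney footprints. In the same Ribo-seq libraries the proximal tubule markers summed to 138 to 148 TPM in P42 heart and 1.62 to 2.98 TPM in E15.5 heart, against 0.203 to 0.243 TPM of their mRNA in P42 heart, and hepatocyte markers to 253 to 673 TPM in P42 heart and 192 to 271 TPM in E15.5 heart. The part of RNA from kidney or liver in these footprints was not tested. In retina the footprints sat in replicate 2, the library with tubule markers: Pck1 had 0 and 28.1 TPM at P42, against 0.152 and 0.317 TPM at E15.5, and Fbp1 had 0.110 and 16.9 TPM at P42, against 0.333 and 0.383 TPM at E15.5. Lung footprints were highest in replicate 1, which also held those markers. Pck1 footprints there were 86.1 and 5.42 TPM at P42, against 0.0300 and 0.0376 TPM at E15.5 (log2 4.52, and 2.64 without P42 replicate 1), and Fbp1 footprints were 51.5 and 2.91 TPM at P42, against 1.18 and 1.89 TPM at E15.5 (log2 2.51, and 0.64, no call, without it). G6pc footprints in lung, 7.19 and 0.198 TPM at P42, against 0 and 0 TPM at E15.5, could not be tested without that library. Pck1 mRNA in lung was 4.01 and 1.38 TPM at P42 and was listed at 0 in both E15.5 libraries.

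Set against the other tissues of the same age, P42 retina led for 9 of the 34 identifiers by mRNA, meaning that it was at least 1 log2 above each of the 5 other tissues at an adjusted p below 0.05, where 15.1% of all genes tested did so. These were Hk2 (log2 2.81 above heart, the next tissue), Hk1, Pfkp, Pfkl, Eno1, Pkm, Ldha, Slc2a1 and the second Aldoa identifier. With median-of-ratios scaling the count was 3. P42 heart led for 4 (1.42% of all genes): Eno3 (log2 4.85 above retina), Pgam2 (2.29 above kidney), Slc2a4 (2.15 above kidney) and Pdhb (1.00 above kidney). P42 kidney led for G6pc, Pck1 and Pcx (4.18% of all genes), none of them with median-of-ratios scaling, and P42 liver for Pklr (3.42%). At E15.5, brain led for Aldoc and Eno2 (7.34%), kidney for Pck1 and Fbp2 (1.79%), and liver for Pklr, Hk3, Pcx and Slc2a2 (6.26%). E15.5 heart led for Pgam2, Eno3, Ldhb, Pdhb, Aldoa and Pdha1 (2.9%), so heart led for the muscle mutase and enolase at both ages. E15.5 retina led for Eno1 and Pkm (2.0%), neither with median-of-ratios scaling. P42 brain, P42 lung and E15.5 lung led for 0 members, where 7.47%, 6.95% and 2.74% of all genes were led, and no member was past the fold there at any p; median-of-ratios scaling gave 2 in P42 brain. By footprints, E15.5 heart led for 14 members (3.36% of all genes), among them Pgam2, Eno3, Pfkp, Aldoa, Hk1 and Slc2a4. P42 retina led for 6 by footprints (2.87%), Hk2, Eno1, Pkm, Ldha, Pgam1 and Pfkl, and P42 brain for Slc2a3 and Eno2 (10.9%).

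Few members were called for a change in translational efficiency. Calls were 2 higher and 0 lower of 24 in brain (all genes 27.7% and 2.28%), 2 higher and 2 lower of 25 in retina (all genes 11.8% and 1.87%) and 1 higher and 1 lower of 20 in heart (all genes 10.7% and 4.94%). They were 0 higher and 3 lower of 27 in kidney (all genes 2.11% and 4.37%), 0 higher and 0 lower of 19 in liver (all genes 3.89% and 19.6%) and 5 higher and 0 lower of 21 in lung (all genes 39.4% and 1.28%). At an unadjusted p below 0.05, whatever the fold, members higher and lower were 6 and 1 in brain, 5 and 2 in retina and 1 and 5 in heart. They were 0 and 18 in kidney, 3 and 2 in liver and 7 and 0 in lung. The members' median change was -0.753 log2 in kidney, beside -0.0889 for all genes, and -0.32 in heart, beside 0.202. The kidney calls turned on single libraries, as given below. In brain and lung the members were called higher less often than all genes, with no test of that difference. Besides Pfkp in brain, Pgam1 in retina was called: its mRNA had 899 and 929 TPM at P42, against 657 and 641 TPM at E15.5 and its footprints 205 and 154 TPM at P42, against 32.4 and 29.9 TPM at E15.5 (log2 1.98, SE 0.34, adjusted p = 0.00017). Pcx in lung had mRNA of 10.1 and 5.23 TPM at P42, against 14.4 and 13.9 TPM at E15.5 and footprints of 38.4 and 25.5 TPM at P42, against 12.9 and 13.99 TPM at E15.5 (log2 2.03, SE 0.34, adjusted p = 2.1e-05). These 3 calls were kept under both scalings and without any single library. Retinal Hk1 went the other way, its mRNA having risen further than its footprints (log2 -1.07, SE 0.29, adjusted p = 0.0088), as did the second Aldoa identifier in retina (log2 -1.12, SE 0.33, adjusted p = 0.015) and Aldoa in heart (log2 -1.02, SE 0.38, adjusted p = 0.049). These were kept under both scalings and lost without 1 or more libraries.

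Kidney Eno3 and Pgam2 were called lower in efficiency (log2 -2.40, SE 0.70, adjusted p = 0.032 for Eno3, and log2 -2.25, SE 0.67, adjusted p = 0.036 for Pgam2). Eno3 mRNA had 5.05 and 5.81 TPM at P42, against 23.7 and 11.6 TPM at E15.5, and its footprints had 1.37 and 0.963 TPM at P42, against 26.3 and 34.6 TPM at E15.5. In the same Ribo-seq libraries, 10 skeletal muscle markers summed to 2.20 to 2.30 TPM in P42 kidney and 203 to 258 TPM in E15.5 kidney, and 5 heart markers to 7.50 to 11.5 TPM in P42 kidney and 296 to 811 TPM in E15.5 kidney; their part was not tested. Without replicate 2 of E15.5 kidney RNA-seq no member was called lower in kidney efficiency, and without replicate 1 there were 20 such calls, in place of 3. Pgam1 in heart (log2 1.13) and lung (1.03), Pfkp, Eno1 (1.14) and Pdha1 (1.55) in lung, Slc2a3 in brain (1.20) and Hk1 in kidney (-1.01) were called but not kept under every scaling.

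A list of 48 neighbouring genes, chosen for their place in the pathway (regulators, carriers of lactate and pyruvate, shuttles), was read the same way. Its calls were 9 up and 8 down of 43 in brain by mRNA (all genes 11.7% and 36.0%), with 16 and 3 of 43 by footprints (all genes 20.2% and 17.7%). Corresponding counts were 6 up and 5 down of 42 in retina by mRNA (all genes 18.6% and 24.7%), with 11 and 3 of 36 by footprints (all genes 21.3% and 16.2%). Heart had 4 up and 15 down of 39 by mRNA (all genes 2.73% and 74.6%), with 10 and 9 of 41 by footprints (all genes 10.2% and 50.6%), and kidney 15 up and 6 down of 43 by mRNA (all genes 13.1% and 43.9%), with 19 and 5 of 43 by footprints (all genes 12.2% and 40.2%). Liver had 16 up and 14 down of 44 by mRNA (all genes 13.4% and 47.0%), with 16 and 9 of 43 by footprints (all genes 10.2% and 44.0%), and lung 3 up and 20 down of 42 by mRNA (all genes 10.1% and 53.5%), with 11 and 6 of 41 by footprints (all genes 18.6% and 22.8%). In heart, Pdk3, a kinase that shuts off pyruvate dehydrogenase, had 1.31 and 1.34 TPM in P42 heart, against 96.2 and 96.7 TPM in E15.5 heart (log2 -5.39), whereas its relative Pdk4 rose (log2 2.25). Slc16a3 (MCT4, the carrier known for lactate export) had 0.672 and 0.431 TPM in P42 heart, against 47.5 and 43.4 TPM in E15.5 heart (log2 -4.91), and it fell as well in kidney (log2 -3.02) and liver (log2 -4.64). The lactate carrier was thus low in P42 libraries of all 3 tissues. In kidney Khk (ketohexokinase) rose (log2 5.17) and Slc16a1 fell (-2.16). In liver Ldhd (D-lactate dehydrogenase) rose (log2 3.88), and Bpgm, the red-cell enzyme that makes bisphosphoglycerate, fell (-4.02) beside the erythroid markers given above.

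In retina, Pfkfb2, which makes the activator of phosphofructokinase, had 142 and 91.7 TPM in P42 retina, against 6.53 and 7.54 TPM in E15.5 retina (log2 3.85), and Pgm2 (phosphopentomutase) fell (log2 -1.63). Brain Gpd1, the cytosolic glycerol-3-phosphate dehydrogenase, had 92.5 and 99.8 TPM in P42 brain, against 4.14 and 4.24 TPM in E15.5 brain (log2 4.22), and Got1 of the malate-aspartate shuttle rose (log2 2.19). Brain Pfkfb3 and Pgm2 fell (log2 -1.85 and -1.73, Pgm2 not under every scaling). Gpd1 rose also in heart and lung (log2 2.00 and 2.22). Lung Eno4 rose (log2 1.46), and Got2 and Adpgk fell (log2 -2.23 and -1.87, neither under every scaling).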

How the data were processed

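Poly(A)+ RNA-seq and Ribo-seq libraries of 6 mouse tissues at 2 stages were analysed as gene tables of exon-level TPM deposited by the authors, 1 table for each stage and assay, with 2 libraries for each group. Per the submitters' processing notes, the tools were CASAVA 1.8.2, cutadapt 1.8.1, TopHat2 2.0.14 and featureCounts 1.6.2 (Subread), and the build was GRCm38.p6; the annotation release, the use of strand and the treatment of reads with several matches are not given in these sources. TPM gives no read depth, so no interval from counts is printed. Symbols were mapped through GENCODE M21 with identifier versions dropped.

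Genes with at least 1 TPM in 2 or more of the 24 libraries of an assay were fitted with limma 3.58.1 (R 4.3.3) on log2(TPM + 1), with 1 group per tissue and stage, a variance trend and Benjamini-Hochberg adjustment over all genes tested. A tissue's contrast, P42 minus E15.5, was tested where its libraries averaged at least 1 TPM. A fold change on this scale understates the change of low genes, and the spread is shared by all groups (12 residual degrees of freedom). Efficiency was tested as an interaction over all 48 libraries where mRNA averaged at least 5 TPM at each stage. The scripts were tested on simulated data. Scalings tried were median-of-ratios, the 13 mitochondrially encoded genes left out, centring on the median gene, and an equal sum of the listed genes, the last chosen after seeing the data; for efficiency only median-of-ratios and centring. Shares are the TPM of an isozyme as a percent of the listed members of its step. Values in every library are given for up to 3 members in each direction per tissue with the largest mRNA change among those called alike by both assays, for leading isozymes and for efficiency calls; other members are summarised. Other values were named after they were seen, and some results for neighbouring genes are not reported here. The members and lists were chosen with earlier results of these data known. Replicates are biological per the labels.

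Exons of Hk1, Hk3, Gpi1, Pfkm, Pfkp, Aldoa, Tpi1, Gapdh, Pklr, Pck2, Pdha1 and Slc2a1 overlap a gene on the other strand, and those of Pfkm and Pkm 1 on the same strand. Aldoa, Gapdh, Pgk1, Pgam1 and Ldha have processed pseudogenes named after them and Eno1 a near copy, Eno1b, so their levels are uncertain where reads were shared. Promoter windows are from RefSeq (GRCm38.p6); 31 of 33 symbols matched, all but Slc2a3 and Slc2a4.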

Additional observations from a re-analysis of the deposited data

Results flagged for a closer look

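Some members rose with age in 1 tissue and fell in another, in both assays and under every scaling, and the pair of tissues furthest apart is given for each. Since members and tissues were chosen from these same changes, the differences are a description, with no test. Aldoc had log2 changes of 7.26 in retina and -3.64 in heart, a difference of 10.90 by mRNA and 9.14 by footprints. Hk1 changed by 3.10 in retina and -5.70 in liver, and retina minus liver came to 8.80 by mRNA and 5.56 by footprints. For Hk2 the changes were 3.53 in retina and -3.72 in kidney, with a difference of 7.25 by mRNA and 6.85 by footprints. Slc2a4 stood at 1.88 in heart and -4.51 in liver, 6.39 by mRNA and 3.82 by footprints apart. Slc2a3 gave 2.22 in retina and -3.44 in liver, and the difference was 5.66 by mRNA and 4.82 by footprints. Tpi1, a gene with no isozyme, gave 1.47 in brain and -2.58 in lung, and brain minus lung was 4.05 by mRNA and 3.61 by footprints. Both libraries of each stage showed the direction in each tissue.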

How the results depend on the processing

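Of 102 mRNA, 113 footprint and 16 efficiency calls of members in single tissues, 102, 113 and 15 were kept with the replicate block, and the member counts with the block equalled those given, for example 10 higher and 3 lower in brain mRNA. The labels do not say that replicate numbers mark shared animals. Same-numbered RNA-seq and Ribo-seq libraries of a tissue and stage correlated at -0.24 to 0.33 in their deviations, not above 0.1 in every pair. Same-numbered P42 and E15.5 libraries, which cannot share an animal, correlated at -0.501 to 0.258. The numbers were not taken as pairs, and whether some libraries came from the same animals is not known.

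With median-of-ratios scaling and with centring, members higher by mRNA were 18 and 18 in brain, 11 and 10 in heart, 20 and 19 in kidney, 10 in liver (median-of-ratios only) and 2 and 4 in lung, and members lower 0 and 0 in brain, 1 in retina (median-of-ratios only), 5 and 6 in heart, 10 and 10 in liver, and 8 and 10 in lung. By footprints, those higher in heart were 14 and 9, and those lower 8 in heart (median-of-ratios only), 3 and 3 in kidney, and 9 and 9 in liver. Efficiency calls higher were 1 and 1 in brain, retina and lung, 0 and 0 in heart, and 3 in liver (centring only), and lower 3 and 2 in brain and lung and 9 and 4 in heart. Median-of-ratios scaling gave tissue-led counts by mRNA of 2, 3, 9, 0 and 3 in P42 brain, retina, heart, kidney and liver and 0 and 10 in E15.5 retina and heart, and by footprints of 0, 0 and 2 in P42 brain, kidney and liver and 1 in E15.5 kidney. Leaving out mitochondrially encoded genes gave 6 higher and 11 lower in heart mRNA. The cause of these moves was not tested.

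A pseudocount of 4 or a filter of 5 TPM gave 0 lower in brain and 1 in retina and 0 higher in lung by mRNA, and 1 lower in brain by footprints; that filter, which tests fewer genes, gave 3 lower in kidney mRNA. The pseudocount of 4 also gave 3 higher in lung footprints, efficiency counts of 1 higher in brain and retina and 3 in lung, and 1 gene led by E15.5 kidney footprints. A pseudocount of 0.25 gave efficiency counts of 1 lower in retina and kidney and 0 in heart, and footprint-led counts of 1 in P42 brain and 0 in P42 kidney. An mRNA floor of 20 TPM gave 1 lower in retina, 0 lower in heart and 2 higher in lung. Chosen after seeing the data, equal sums gave footprint counts of 8 higher in heart and 1 in lung, and leaving out calls below 5% of a gene's highest tissue gave 0 lower in brain, 3 higher in heart and 2 in lung.

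Some calls changed sign. With median-of-ratios scaling, heart mRNA changes were 0.39 for Tpi1, 0.32 for Pcx, 0.68 for Pkm, 0.65 for Gpi1, 0.12 for Pgk1 and 0.0929 for Ldha, lung Pgam2 mRNA was 0.10, and liver footprints were 0.0925 for Ldhb and 0.10 for Gpi1. With centring, heart mRNA changes were 0.27 for Pcx, 0.28 for Pkm, 0.25 for Gpi1, 0.0551 for Fbp1 and 0.0886 for ENSMUSG00000114515, and lung Slc2a3 was 0.0652. The cause was not tested.

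Leaving out 1 library at a time gave 0 to 1 higher in lung by mRNA (0 without P42 replicate 1). By footprints it gave 2 to 4 lower in brain (4 without P42 replicate 1) and 2 to 8 higher in lung (2 without P42 replicate 1 and 3 without E15.5 replicate 1). Efficiency counts were 0 to 1 lower in brain (1 without E15.5 Ribo-seq replicate 2), 1 to 2 higher and 0 to 2 lower in retina, and 0 to 1 higher and 0 to 2 lower in heart. They were 0 to 20 lower in kidney (20 without E15.5 RNA-seq replicate 1), 0 to 2 higher and 0 to 2 lower in liver (2 without P42 Ribo-seq replicate 1 and 2 without P42 Ribo-seq replicate 2), and 3 to 6 higher in lung (3 without P42 RNA-seq replicate 2 or P42 Ribo-seq replicate 1). Calls lost without 1 library were, by mRNA, Eno3 in every tissue but brain, Hk2 and Slc2a3 in brain, Ldhb and Pklr in liver, and Pgam2 and Slc2a3 in lung. TPM gives no depth, and 2 libraries a group limit the precision.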
